A study of Trichoderma reesei with 8 samples.

Results

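The genes described here are the cellobiohydrolase genes *cbh1* and *cbh2* and the endoglucanase genes *egl1* and *egl2* of *Trichoderma reesei* QM6a, a wild-type filamentous fungus. They are 4 of the 9126 gene models in the deposited tables. They were chosen by name, but all 4 are also in the list of genes that the study selected for strong induction on straw in these libraries, so that their direction on straw is not independent of that choice. All 4 passed the filter on low counts that left 7211 models for testing. RNA was sequenced from 3 cultures incubated for 24 h on wheat straw after washing and transfer from glucose medium, from 2 straw cultures that had received glucose 5 h before harvest, and from 3 cultures grown from conidia for 48 h in glucose. Every carbon source was given at 1% (w/v), at 28°C, with 1 library per culture. The 5 h cultures still held the straw, and their 24 h on straw preceded the 5 h. In the text, 48 h glucose, straw and 5 h glucose stand for these conditions.

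Cellulose is taken apart by enzymes that act in different ways. Cellobiohydrolases move along the crystalline chain from its ends and release the disaccharide cellobiose, whereas endoglucanases cut inside the less ordered stretches and so make new ends, and β-glucosidases then split cellobiose into glucose. CBH1 and EGL1 both belong to glycoside hydrolase family GH7, CBH2 to GH6 and EGL2 to GH5. In *T. reesei* the genes for these secreted enzymes are classical examples of induction by cellulose and of carbon catabolite repression by glucose, and CBH1 is the main protein that the fungus secretes under inducing conditions. CBH1 works from the reducing end of the chain and CBH2 from the non-reducing end.

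The *cbh1* model (estExt_fgenesh5_pg.C_290113, transcript 123989, RefSeq symbol *cel7a*) lies on scaffold 29 of the version 2.0 assembly, and RefSeq places the gene at 332378 to 334401. The *egl1* model (estExt_fgenesh5_pg.C_100226, transcript 122081, *cel7b*) lies on scaffold 10 at 665665 to 667273. The other two share scaffold 3, where *cbh2* (kg2.C_scaffold_3000002, transcript 72567) spans 12521 to 14440 and *egl2* (estExt_fgenesh5_pg.C_30013, transcript 120312, *cel5a*) spans 33633 to 35550. The transcript lengths listed with the counts were 1893 bases for *cbh1*, 1725 for *cbh2*, 1482 for *egl1* and 1616 for *egl2*, so that levels are compared between these genes only as RPKM (reads scaled to transcript length and library total).

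The reads counted on genes numbered between 2473359 and 2997433 per library on straw, 798550 and 950244 at 5 h glucose, and between 1337099 and 1704969 at 48 h glucose. The RPKM were calculated by the authors on a much larger library total, of which the gene reads made up between 18.2% and 20.2% on straw, 7.38% and 10.2% at 5 h glucose, and between 10.1% and 12.2% at 48 h glucose. Differences between conditions were therefore tested on the counts, scaled by edgeR's TMM method. When scaled by the RPKM totals, the whole distribution of log2 fold changes shifted, its median by 0.80 for straw over 48 h glucose, by -1.27 for 5 h glucose over straw and by -0.46 for 5 h over 48 h glucose, and the log2 fold changes of the 4 genes moved with it. The split of higher and lower calls moved as well, to 4294 and 753 from 2203 and 2034 for straw over 48 h glucose, to 443 and 4850 from 2056 and 2166 for 5 h glucose over straw, and to 847 and 2415 from 1850 and 1671 for 5 h over 48 h glucose. Straw libraries 1 and 3 lay close to each other, with a median squared difference of 1.52 times the counting noise over 758 well-covered genes, and straw library 2 stood apart from both, at 15.5 and 16.8 times. Values without it are given for the shares on straw and for fold changes that it moves by over 1.5 times.

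On straw all 4 genes were among the genes with the largest induction, against at most 47 reads in any 48 h glucose library. *cbh1* was read 50865, 72596 and 62172 times in straw libraries 1 to 3, or 1994, 3048 and 1994 RPKM, against 37, 47 and 34 reads, or 1.40, 1.94 and 1.36 RPKM, at 48 h glucose. *cbh2* had 675, 1250.2 and 659 RPKM on straw, against 0.788, 0.544 and 0.394 RPKM at 48 h glucose. *egl2* had 338, 732 and 345 RPKM on straw, against 0.310, 0.387 and 0.374 RPKM at 48 h glucose. In each of these genes the lowest straw library was far above the highest 48 h glucose library, and straw library 2 was the highest of the 3. *egl1* was the least abundant, with 50.3, 172 and 50.9 RPKM on straw from 1004, 3205 and 1243 reads, whereas the 48 h glucose libraries held 1, 0 and 1 read. The second 48 h glucose library was thus listed at 0 RPKM for *egl1*, and the other two at 0.0482 and 0.0510 RPKM.

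**Figure D1:**
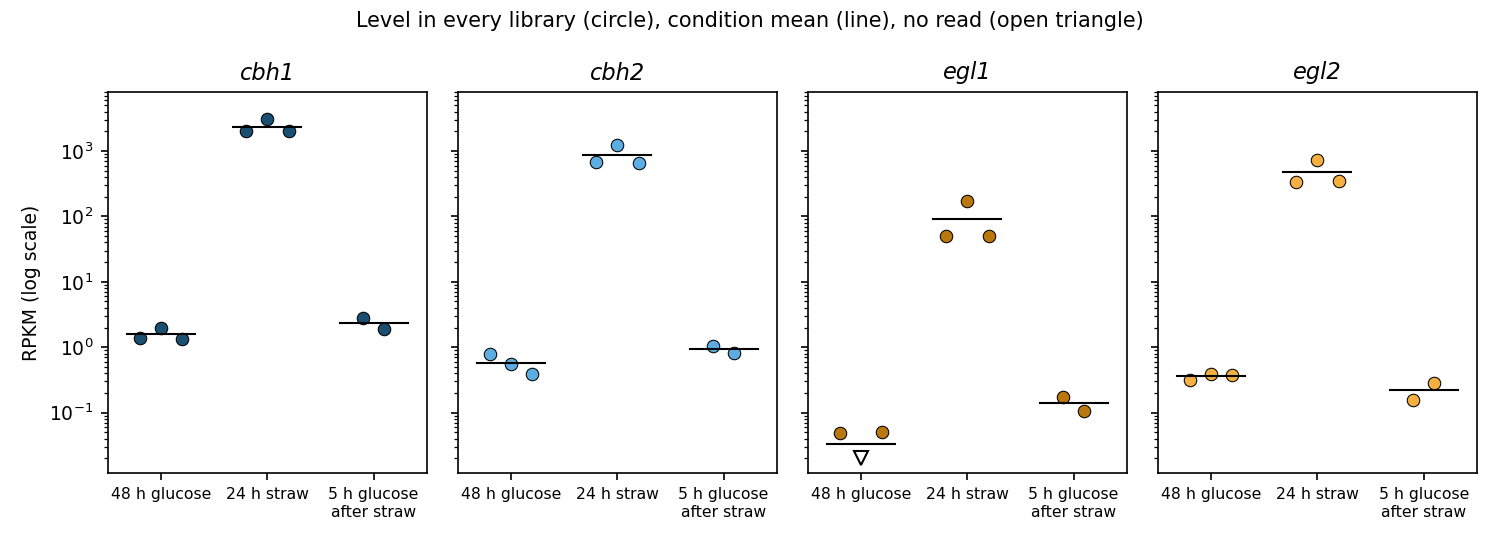
RPKM of the 4 genes in each of the 8 libraries on a log axis, with a panel per gene and the conditions in the order in which the cultures passed through them. Circles are libraries, lines are condition means and the open triangle marks the library without a read; straw levels lie between 50.3 and 3048 RPKM, and no glucose library exceeds 2.83 RPKM.

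The log2 fold change for straw over 48 h glucose was 9.74 for *cbh1* (standard error 0.33, adjusted p = 7.16e-14), 9.72 for *cbh2* (0.36, adjusted p = 1.31e-13), 9.53 for *egl2* (0.39, adjusted p = 5.34e-13) and 10.36 for *egl1* (0.67, adjusted p = 2.1e-10), by the quasi-likelihood test of edgeR, adjusted after Benjamini-Hochberg over the 7211 genes. All 4 were called higher, where 30.6% of all genes tested were, and in all 4 the libraries of both conditions did not overlap with straw above, which held for 35.6% of all genes tested. Ordered by size of the log2 fold change in this comparison, *egl1* was 5th, *cbh1* 11th, *cbh2* 13th and *egl2* 21st of 7211. Since the 48 h glucose levels rest on few reads, the folds were also calculated from the summed reads with exact 95% intervals, which cover counting error only. They came to 851-fold for *cbh1* (711 to 1028), 832-fold for *cbh2* (611 to 1165), 739-fold for *egl2* (492 to 1166) and 1475-fold for *egl1* (408 to 12181). The 4 intervals overlap, so that the order of the folds cannot be told from these reads. For *egl1* the fitted value also depends on straw library 2: without it the log2 fold change was 9.56.

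Expressed the other way, TMM-scaled counts at 48 h glucose came to 0.118% of the straw level for *cbh1*, 0.116% for *cbh2*, 0.135% for *egl2* and 0.0662% for *egl1*. The first 3 of these genes differ in straw level from 472 ± 225 to 2346 ± 609 RPKM (SD, n = 3), and their remainder in glucose was nearly the same fraction of it. By RPKM the 4 genes kept the order they had on straw, *cbh1* before *cbh2* before *egl2* before *egl1*, in each of the 3 libraries of 48 h glucose.

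*cbh1* was the second most abundant transcript of all 9126 models, by RPKM, in each of the 3 straw libraries, below *xyn2*, which encodes an endoxylanase. The level of *cbh1* came to 50.9% and 50.4% of that of *xyn2* in straw libraries 1 and 3, and to 88.3% in straw library 2. *cbh2* ranked between 7th and 11th, *egl2* between 13th and 37th and *egl1* between 96th and 373rd on straw. At 48 h glucose *cbh1* ranked between 4837th and 5487th, and the other 3 genes at 6161st or below. Together the 4 genes held 3.57% ± 0.923 (SD, n = 3) of the gene reads of a straw library (3.04% without straw library 2), 0.00760% ± 0.000119 (SD, n = 2) at 5 h glucose and 0.00406% ± 0.000419 (SD, n = 3) at 48 h glucose. In the first 5 h glucose library, the shallowest of the 8, the share was 0.00751% with an exact 95% interval of 0.00573% to 0.00967%. No library of one condition overlapped with a library of another in this share. The counting intervals of the glucose conditions did overlap slightly, since that of the second 48 h glucose library reached from 0.00352% to 0.00576%.

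The amount of the 4 transcripts differed by far more than the proportions among them. On straw, *cbh1* made up 63.1% ± 3.88 of their summed RPKM, *cbh2* 22.6% ± 1.28, *egl2* 12.1% ± 1.67 and *egl1* 2.21% ± 0.951 (SD, n = 3 each). Without straw library 2 these means were 65.3%, 21.8%, 11.2% and 1.66%. At 48 h glucose the corresponding shares were 61.6% ± 6.35, 22.7% ± 7.20, 14.3% ± 2.60 and 1.41% ± 1.24 (SD, n = 3 each). Each difference was smaller than the spread at 48 h glucose. The exact permutation p for straw against 48 h glucose was 0.7 for *cbh1*, 0.6 for *egl1* and 0.3 for *egl2*, and higher for *cbh2*. With 3 against 3 libraries this test cannot go below 0.1, so that it could not pass the threshold for any share. The ratio of *cbh1* to *cbh2*, the cellobiohydrolases of the opposite chain ends, was 2.81 ± 0.321 on straw, 2.56 ± 0.251 (SD, n = 2) at 5 h glucose and 2.93 ± 1.00 (SD, n = 3) at 48 h glucose. Both cellobiohydrolases together held 6.11 ± 1.18 times the RPKM of both endoglucanases together on straw (SD, n = 3), with 4.76 in straw library 2 as the lowest. This ratio was 6.97 and 11.7 at 5 h glucose, against at most 6.88 on straw, and between 4.12 and 6.42 at 48 h glucose. The 5 h values rest on 2 *egl1* reads in each library and on 2 and 6 *egl2* reads. A difference from straw in this ratio therefore cannot be told from counting error and was not tested.

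**Figure D2:**
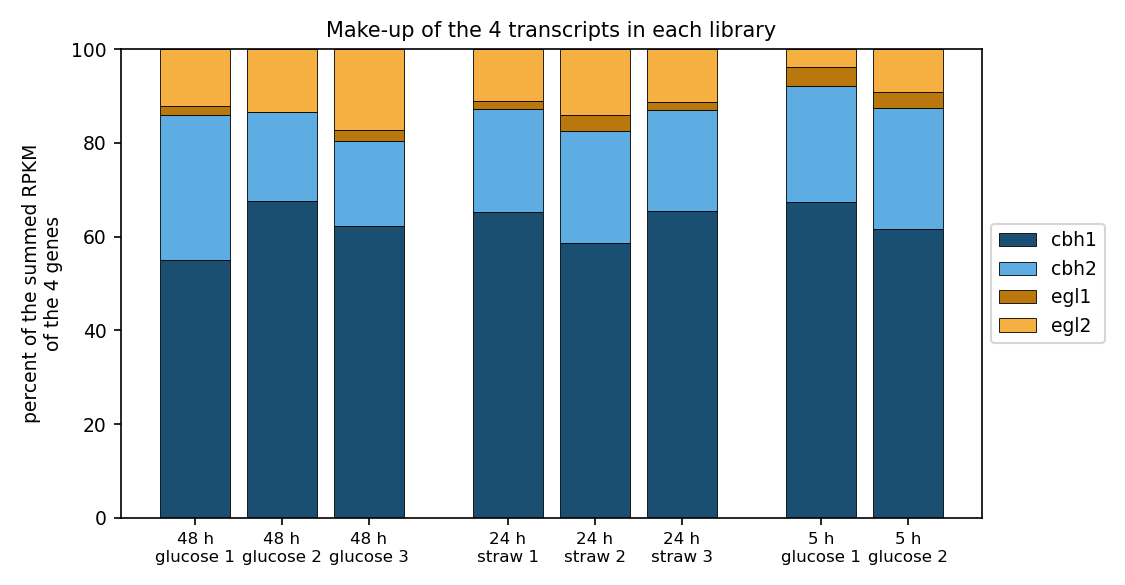
Stacked bars give the percent of the summed RPKM of the 4 genes held by each gene in each library, from 48 h glucose through straw to 5 h glucose. The *cbh1* share lies between 55.0% and 67.6% in all 8 libraries, although the summed RPKM is at least 3049 in every straw library and at most 4.196 in every glucose library.

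At 5 h glucose the shares of 3 of the genes lay outside their range on straw. *egl2* held 3.76% and 9.21% of the summed RPKM, against 11.1%, 14.1% and 11.3% on straw, and the 5 h values rest on 2 and 6 reads. *cbh2* held 24.7% and 25.9% at 5 h glucose, against 22.1%, 24.0% and 21.6% on straw. *egl1*, with 2 reads in each 5 h library, held 4.10% and 3.35% there, against 1.64%, 3.30% and 1.67% on straw. The ratio of *egl2* to *egl1* was 0.917 and 2.75 at 5 h glucose, against 6.72, 4.26 and 6.78 on straw. The exact permutation p of each of the 3 shares was 0.2. This is the smallest that the test as run can give with 2 against 3 libraries, so that it could not pass a threshold of 0.05.

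Straw library 2 held more of each of the 4 transcripts than straw libraries 1 and 3, whose RPKM differed little from each other, with ratios of library 3 to library 1 between 0.978 and 1.02. The level of *cbh1* was 1.53 times the mean of the other two libraries, that of *cbh2* 1.87 times, that of *egl2* 2.14 times and that of *egl1* 3.40 times. The median of all genes tested was 1.06. Ratios at or above that of *cbh1* were found in 6.16% of the 7211 genes, at or above that of *cbh2* in 1.97%, of *egl2* in 1.05% and of *egl1* in 0.153%, or 11 genes. The less abundant genes of the 4 thus had the larger ratios. With 1 such library these are values without a test. The library also differed from the others in many further genes, as given above.

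The other transcripts of straw degradation did not all follow. Among 29 further carbohydrate-active and accessory genes that the study listed as strongly induced on straw, the ratio of straw library 2 to the others ranged from 0.199 to 2.60, with a median of 0.986. It was at or above 1.5 in 4 of the 29: *bgl1*, encoding the main extracellular β-glucosidase (2.54), the swollenin gene *swo1* (2.28), the gene of a CE5 acetyl xylan esterase (2.60) and *bgl2*, encoding an intracellular β-glucosidase (1.55). On TMM-scaled counts the ratio was at or above 1.5 in 3 of the 29, with *bgl2* at 1.46, and *cbh1* itself came to 1.44. The 5 genes for the breakdown of the xylan backbone had RPKM ratios between 0.679 and 1.36. All 5 lay below the lowest ratio of the 4 cellulase genes, which was not tested since it rests on 1 library.

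**Figure D3:**
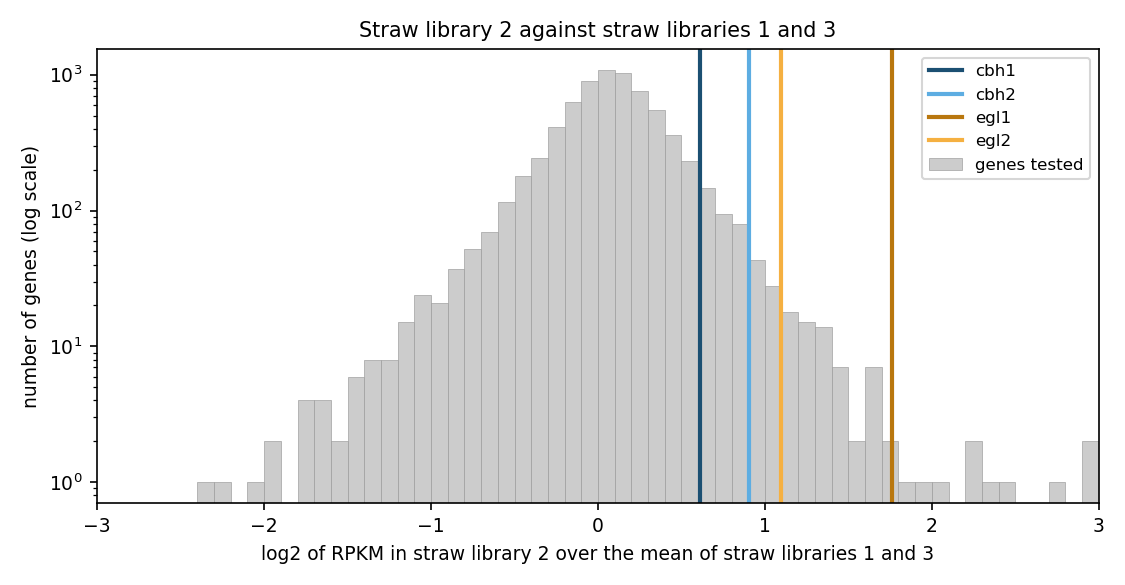
Histogram of the 7211 genes tested by the log2 ratio of their RPKM in straw library 2 to the mean of straw libraries 1 and 3, with the number of genes on a log axis. Vertical lines mark the 4 genes, at ratios of 1.53 (*cbh1*), 1.87 (*cbh2*), 2.14 (*egl2*) and 3.40 (*egl1*), all to the right of the median of 1.06.

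Within 5 h of glucose addition the 4 transcripts had fallen to nearly the level of cultures that had never seen straw. *cbh1* had 42 and 47 reads at 5 h glucose, or 2.83 and 1.93 RPKM, against 1994, 3048 and 1994 RPKM on straw. *cbh2* had 1.04 and 0.810 RPKM at 5 h glucose from 14 and 18 reads, against 675, 1250.2 and 659 RPKM on straw. *egl1* had 0.172 and 0.105 RPKM from 2 reads in each library, against 50.3, 172 and 50.9 RPKM on straw. *egl2* had 0.158 and 0.288 RPKM from 2 and 6 reads, against 338, 732 and 345 RPKM on straw. Every 5 h library was below every straw library in all 4 genes, a pattern found in 38.5% of all genes tested.

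For 5 h glucose over straw the log2 fold change was -8.69 for *cbh1* (standard error 0.39, adjusted p = 7.36e-12), -8.58 for *cbh2* (0.41, adjusted p = 1.2e-11), -9.60 for *egl2* (0.50, adjusted p = 4.18e-11) and -8.07 for *egl1* (0.72, adjusted p = 3.46e-08), in the same edgeR test. All 4 were called lower, where 30.0% of all genes tested were. From the summed reads, straw levels were 409-fold those at 5 h glucose for *cbh1* (exact 95% interval 332 to 509), 377-fold for *cbh2* (267 to 551), 769.5-fold for *egl2* (390.5 to 1783) and 267-fold for *egl1* (104 to 981). The transcript left after 5 h came to 0.242% of the straw level for *cbh1*, 0.260% for *cbh2*, 0.125% for *egl2* and 0.363% for *egl1*, on TMM-scaled counts. Single libraries moved these values in 2 of the genes: without straw library 2 the log2 fold change of *egl1* was -7.31, and without the second 5 h glucose library, which holds 6 of the 8 *egl2* reads, that of *egl2* was -10.58.

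Levels at 5 h glucose after straw and at 48 h glucose differed little, and the answer depended on the scaling. In TMM-scaled CPM (counts relative to the TMM library size), *cbh1* had 53.3 and 55.5 at 5 h glucose, against 21.5, 31.9 and 25.8 at 48 h glucose, which is 1.05 ± 0.33 (SE) as a log2 fold change (adjusted p = 0.0147, edgeR). In RPKM the same libraries overlapped, with 2.83 and 1.93 at 5 h glucose against 1.40, 1.94 and 1.36 at 48 h glucose, and with the RPKM totals as the scaling the log2 fold change was 0.58 with an adjusted p of 0.138. *cbh1* was the only one of the 4 called in this comparison, in which 25.7% of all genes tested were called higher. The ratio of *cbh1* at 5 h glucose to 48 h glucose, 2.08 (exact 95% interval 1.56 to 2.77 from the summed reads), is small beside the 851-fold rise on straw.

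*cbh2* had 17.8 and 21.2 TMM-scaled CPM at 5 h glucose, against 11.03, 8.14 and 6.83 at 48 h glucose. The libraries did not overlap, as in 32.0% of all genes tested with 5 h glucose above, but the log2 fold change of 1.144 (standard error 0.47) did not pass the threshold in the edgeR test (adjusted p = 0.0521). It passed with DESeq2 (adjusted p = 0.0238), with a model of only these 2 conditions (adjusted p = 0.0386, edgeR) and without straw library 2 (adjusted p = 0.0278, edgeR). With the RPKM totals as the scaling it was 0.64 and did not pass (adjusted p = 0.257, edgeR). The fold of *cbh2* from the summed reads was 2.21, with an exact 95% interval of 1.34 to 3.61 that covers counting error only. *egl1* was represented by 2 and 2 reads at 5 h glucose, against 1, 0 and 1 read at 48 h glucose, and the ratio of 5.52 had an exact 95% interval of 0.791 to 61.04. *egl2* had 2 and 6 reads at 5 h glucose, against 7, 8 and 8 at 48 h glucose, which is -0.06 ± 0.77 (SE) as a log2 fold change (adjusted p = 0.954, edgeR). The fitted values of *egl1* and *egl2* in this comparison exist only because their straw reads carried them through the filter, and with these 2 conditions alone neither gene was kept for testing. The fold of *egl2* from the summed reads was 0.960 with an exact 95% interval of 0.371 to 2.22, so that neither a loss nor a gain of up to about that size can be told from these libraries.

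**Figure D4:**
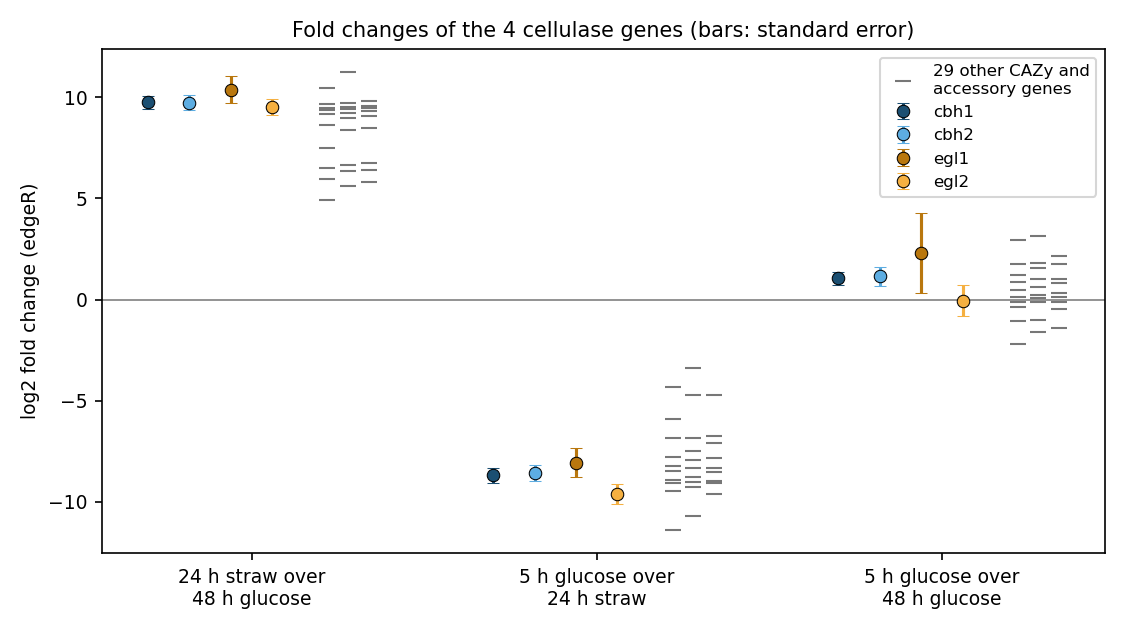
Log2 fold changes of the 4 genes (circles, with standard errors) in the 3 comparisons, with those of 29 other straw-induced genes as grey dashes. The 4 genes lie between 9.53 and 10.36 for straw over 48 h glucose, between -9.60 and -8.07 for 5 h glucose over straw, and between -0.06 and 2.30 for 5 h over 48 h glucose, where the standard error of *egl1* is 1.96 and *egl1* and *egl2* were kept for testing through their straw reads.

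The 29 other genes give the setting of these values. They were listed by the study for their induction in these same libraries, so that their direction on straw is fixed by that choice, and each of the 29 was called higher in the straw comparison and lower after glucose addition. Their median log2 fold changes were 9.05 and -8.33, against medians of 9.73 and -8.63 for the 4 cellulase genes and of 0.05 and -0.04 for all genes tested. Genes of proteins for which the study describes or proposes an accessory role in cellulose breakdown lay on straw within the range of the 4 cellulase genes, 91.0 to 2346 RPKM. *cel61a* and *cel61b*, encoding copper-dependent oxidative enzymes of family AA9, had straw levels of 668 and 476 RPKM and log2 fold changes of 9.05 and 9.18. *cip1*, encoding a secreted protein with a cellulose-binding module, had 323 RPKM and 9.52. *swo1* had 592 RPKM on straw and a lower log2 fold change of 6.40, with 3.94 RPKM at 48 h glucose. The 5 xylan backbone genes had log2 fold changes between 9.20 and 9.79 for straw over 48 h glucose.

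The β-glucosidase genes, whose enzymes complete the work of the cellulases, were among the genes whose folds after glucose addition lay nearer to 0. Of the 29 genes 13 were nearer to 0 than all 4 cellulase genes, including all 3 β-glucosidase genes, *swo1* and, nearest, a GH2 β-mannosidase gene at -3.36. For 5 h glucose over straw the log2 fold change was -4.34 for *bgl2* (standard error 0.30, adjusted p = 1.36e-09), -4.73 for *cel1b* (0.29, adjusted p = 2.54e-10) and -7.48 for *bgl1* (0.52, adjusted p = 1.36e-09) (same edgeR test). The 4 cellulase genes lay between -9.60 and -8.07, and the difference between the genes was not tested. The bound at -8.07 is *egl1* (standard error 0.72), which came to -7.31 without straw library 2. The count of 13 and the place of *bgl1* in it therefore depend on *egl1*, and the 13 were not counted again without that library. All 3 β-glucosidase genes were called higher at 5 h glucose than at 48 h glucose, and 2 of them with the RPKM totals as the scaling. The call was clear for *bgl2* (adjusted p = 1.33e-07, edgeR) and near the threshold for *bgl1* (0.0306) and *cel1b* (0.0419). *bgl1* was also near the floor, with 0.0402 RPKM at 48 h glucose and 0.217 RPKM at 5 h glucose. Over the 29 genes, 5 h over 48 h glucose gave 6 higher and 1 lower, or 5 higher and 2 lower with the RPKM totals.

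A further 22 models, found in the part of the study's gene annotation that could be read, are annotated with a glycoside hydrolase or carbohydrate esterase family and are not among the 29. Of the 16 that passed the filter, 7 were called higher and 5 lower on straw than at 48 h glucose, with a median log2 fold change of 0.44, where 30.6% of all genes tested were higher and 28.2% lower. With the RPKM totals as the scaling the split was 11 and 1, where 59.5% of all genes tested were higher and 10.4% lower.

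Across the 8 libraries, the pattern of *cbh1* and that of *cbh2* were among the closest to each other. By Pearson's r of log2 CPM, *cbh2* was 3rd in likeness to *cbh1* and *cbh1* was 2nd in likeness to *cbh2* (r = 0.998 over 8 libraries). Such values are high for many genes, since the straw libraries lie far above the glucose libraries in each: 87 genes reached an r of 0.99 with *cbh1*, 78 with *cbh2*, 67 with *egl2* and 30 with *egl1*. The other genes closest to *cbh1* were estExt_fgenesh5_pg.C_90233, the gene of a major facilitator transporter (fgenesh5_pg.C_scaffold_7000131), the alcohol oxidase gene *aox1* and *xyn2*, with r between 0.997 and 0.998. Those closest to *cbh2* were e_gw1.5.72.1, estExt_fgenesh5_pg.C_260087, an iron-containing alcohol dehydrogenase gene and the gene of another major facilitator permease.

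*egl1* stood nearest to the CE5 acetyl xylan esterase gene named above (r = 0.998), followed by an oxidoreductase gene (e_gw1.22.217.1), estExt_fgenesh5_pg.C_90034, the same alcohol dehydrogenase gene and *cbh2* (r = 0.995). *egl1* and that esterase gene shared the high value in straw library 2, at 3.40 and 2.60 times the other two libraries. *egl2* stood nearest to *xyn4* and, as the 3rd, to *swo1* (r = 0.998 for both), with estExt_fgenesh5_pg.C_190186, estExt_Genewise1.C_110047 and e_gw1.38.54.1 as the rest of its 5. *cbh1* was 53rd, *cbh2* 65th and *egl1* 108th in likeness to *egl2*, so the partner gene on scaffold 3 was not among its closest. All 8 libraries share their 3 conditions, and the order of such near-equal correlations is a description. With a prior count of 0.5, all 5 genes remained for *cbh1* and *egl2*, 4 for *cbh2* and 1 for *egl1*, whose list thus rests on the treatment of low counts. With Spearman's rank correlation none of the 5 genes of any of the 4 lists remained.

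*xyn4* and *swo1* lie near *cbh1* on scaffold 29, their starts at 14.5 kb and 10.6 kb from that of *cbh1*. The gene e_gw1.29.213.1 of unknown function lies between, 2.12 kb from the start of *cbh1*, and was not called on straw (log2 fold change 0.74, adjusted p = 0.31, edgeR). Between *cbh2* and *egl2* on scaffold 3 RefSeq places 8 genes over 19.2 kb. Of these, a GH88 glycosyl hydrolase gene and a permease gene had 0.662 ± 0.119 and 0.353 ± 0.108 RPKM on straw, against 0 and 0.0670 ± 0.116 RPKM at 48 h glucose (SD, n = 3 each), and did not pass the filter on low counts. Another gene between them, e_gw1.3.370.1 of unknown function, was lower on straw, with 3.11 ± 1.07 RPKM against 6.83 ± 1.38 RPKM at 48 h glucose (log2 fold change -1.90, adjusted p = 2.24e-05, edgeR). None of these 3 genes reached 10 RPKM on straw, where *cbh2* and *egl2* averaged 861 and 472 RPKM. The other 5 were not paired with a model.

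On the other side of *egl2*, strongly induced genes lay within 36 kb. They include a xylose transporter gene with 324 ± 120 RPKM on straw (log2 fold change 9.40, adjusted p = 7.21e-13), a dehydrogenase gene with 408 ± 151 RPKM (6.91, adjusted p = 1.36e-12) and a major facilitator transporter gene with 36.1 ± 16.1 RPKM (8.55, adjusted p = 2.61e-11, same edgeR test). Within 50 kb of *egl2* RefSeq lists 31 genes. For 14 of them the model could be paired, and of the 10 tested 7 were higher and 2 lower on straw. The 7 include *cbh2*, itself one of the 4 genes described here. Around *cbh1* the count was 4 higher and 2 lower of 8 tested, and around *egl1* 4 higher and 4 lower of 9. The pairs come in part from genes that the study named for their induction, so these counts are not compared with the 30.6% of all genes. The window and these neighbours were chosen after their values were seen.

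**Figure D5:**
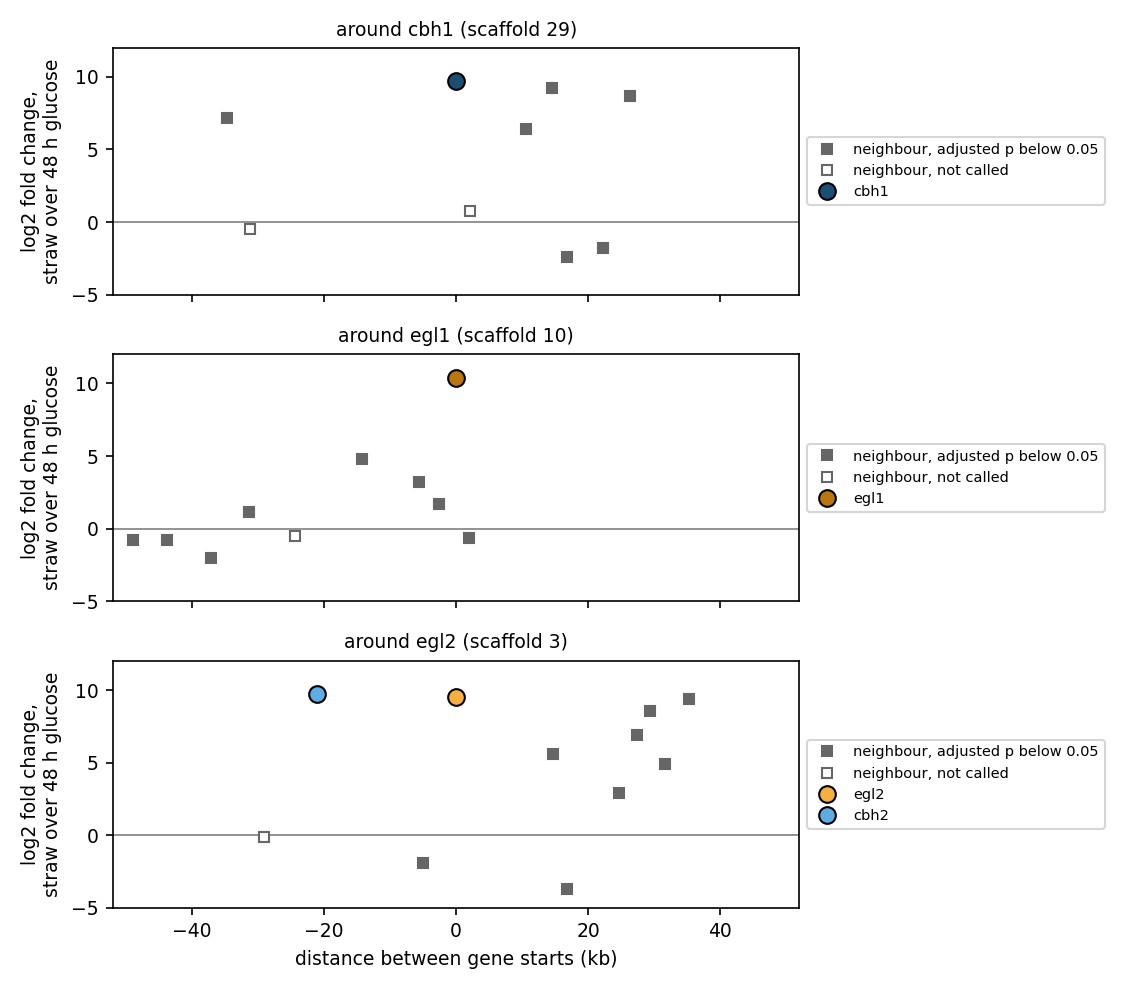
Log2 fold change for straw over 48 h glucose against the distance between gene starts, for genes within 50 kb of *cbh1*, *egl1* and *egl2* that were tested and could be paired with a model. Filled squares passed an adjusted p of 0.05; *egl1* at 10.36 has no tested neighbour above 4.79, whereas *cbh1* and *egl2* each have a neighbour above 9.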

How the data were processed

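Ribosomal-RNA-depleted SOLiD libraries of 50 bp reads, 8 in all, were counted on the sense strand. The authors mapped reads with BioScope 1.3 to JGI assembly version 2, removed rRNA reads and counted uniquely mapped reads per gene model with HTSeq (version not given in the sources used here), and these counts were deposited without normalization. The deposited RPKM divide each count by transcript length and a library total, which was calculated back from the values. Reads on near-identical sequence are lost from such counts.

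Counts were compared with the quasi-likelihood test of edgeR 4.0.16 (R 4.3.3), using TMM factors of 0.893 to 1.06 and filterByExpr, in a single fit over the 8 libraries whose only term was the condition. P values were adjusted after Benjamini-Hochberg over 7211 genes, at a threshold of 0.05. The standard error is the log2 fold change divided by the square root of F. The labels do not say which cultures share a flask or an inoculum, and p values measure the spread between these libraries. Likeness is Pearson's r of log2 CPM (from the deposited counts) with a prior count of 2, and the 5 closest genes per gene were named. Python 3.11.15, scipy 1.17.1 and DESeq2 1.42.0 were also used, and the fit was tested on simulated data.

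The 4 genes and all lists were chosen with earlier results of these data known. Names were paired with models on the study's mean RPKM, and neighbours through 2113 ID pairs in the study's additional data. Shares were planned with adjusted tests over the 4 genes; these are not given, because the genes were chosen together. Regulator genes and other cellulase genes were not analysed here, since no source paired them with a model. No sequence is shown. Alternatives were DESeq2, its size factors, RPKM totals, no filter on low counts, only the 2 conditions compared, a replicate block, straw libraries 1 and 3 summed, and each library left out in turn.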

Additional observations from a re-analysis of the deposited data

How the results depend on the processing

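The calls of the 4 genes for straw over 48 h glucose and for 5 h glucose over straw kept their direction and passed the threshold in all 120 combinations of gene and setting run, with an adjusted p of at most 7.29e-05 (edgeR or DESeq2). With the library totals behind the RPKM, the log2 fold change of *cbh1* for 5 h over 48 h glucose was 0.58 and no longer called. That of *cbh2* in the same comparison was called with DESeq2 (1.139), with only the 2 conditions compared (1.12) and without straw library 2 (1.105). That of *egl2*, not called in any setting, was positive without the third 48 h glucose library (0.06) and without the first 5 h glucose library (0.43). *egl1* and *egl2* had too few reads to be tested for 5 h over 48 h glucose with only the 2 conditions compared. The share of the 4 genes was 0.00286% at 48 h glucose and 0.00447% at 5 h glucose when taken from RPKM, and from reads in place of RPKM *cbh2* made up 24.0% and *egl1* 3.04% of the 4 genes at 5 h glucose.

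Leaving out 1 library at a time gave log2 fold changes for straw over 48 h glucose of 9.54 to 9.89 for *cbh1*, 9.39 to 9.95 for *cbh2*, 9.56 to 10.80 for *egl1* and 9.11 to 9.72 for *egl2*. For 5 h glucose over straw they were -8.78 to -8.53, -8.77 to -8.28, -8.35 to -7.31 and -10.58 to -9.11, and for 5 h over 48 h glucose 0.91 to 1.21, 0.95 to 1.37, 1.79 to 2.73 and -1.04 to 0.43, in the same order of genes. Deviations of libraries with equal replicate numbers had correlations of -0.03 to 0.15. With so few libraries per condition these values cannot tell whether equal numbers mark a shared culture. With the replicate number as a block, 4199, 4097 and 3388 genes were called in the 3 comparisons, against 4237, 4222 and 3521 without it, and no call of the 4 genes changed.

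Depth limits the glucose levels: *egl1* and *egl2* rest on at most 8 reads per glucose library, and *egl1* on at most 2. Only 2 libraries stand for 5 h glucose, and the RPKM and TMM scales differ between conditions.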
